A study of Mus musculus with 5 samples.

Results

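The genes described here are 9 that mature oligodendrocytes use to build and maintain myelin: Mbp, Mog, Mag, Mobp, Cnp, Aspa, Opalin, Ermn and Cldn11. They were chosen by name, by a rule that uses no measured value but with earlier results of these data known, and all 9 were found among the 55573 genes of the count tables. RNA came from the right hemisphere of C57BL/6 female mice that carried a GL261 tumor in the right caudate nucleus-putamen. GL261 is a mouse glioma cell line, here transduced with luciferase and mKate2, and it was inoculated at 7 to 8 weeks of age. In the UMBO group the blood-brain barrier was opened by low-intensity pulsed ultrasound given with injected microbubbles, while the vehicle group received a dilution buffer. Both groups had sessions on days 21 and 24 and were sacrificed 24 h after the last one. Whether vehicle mice in this experiment also received microbubbles is not given in the sources used here. There were 3 vehicle libraries and 2 UMBO libraries from 5 mice. The study's methods describe more mice than the labels do, and a further library was not analysed here.

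Oligodendrocytes wrap axons in a compacted membrane, the myelin sheath, which speeds nerve conduction and supports the axon. The RNAs for its proteins are among the most abundant in adult brain. Some proteins hold the membrane layers together, others sit at the inner or outer edge of the sheath, and a further set serves the cytoskeleton and metabolism of the cell. Precursor cells pass through a short newly formed stage before they make myelin, and that stage has its own marker genes.

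Each hemisphere was sequenced in bulk, so tumor, immune and normal brain cells all contributed, and fewer oligodendrocytes cannot be told apart from less RNA per oligodendrocyte. Total counts lay between 59736771 and 86164159 per library, and the rarest member still had at least 1043 reads in every library. Counting error was therefore at most 3.10% of a member's value, and the precision was set by the number of mice. UMBO replicate 2 stood apart from the other 4 libraries on the principal component that held 78.7% of the variance. Values are given as CPM (counts scaled to the same library size in each library, by the TMM method, which corrects for a few genes taking a large part of a library). The label of the tissue was borne out by its markers. The 9 members summed to between 3869 and 4383 CPM in every library, whereas 5 markers of Schwann cells, which make the myelin of peripheral nerve, summed to at most 12.1 CPM.

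Myelin transcripts were abundant, and the means of the vehicle and UMBO groups for all 9 genes together were close. With TMM the 9 genes summed to 4147 to 4278 CPM with vehicle. The UMBO libraries lay on either side of that range, at 4383 and 3869 CPM, so their mean hides opposite deviations. The 9 genes took 0.378%, 0.434% and 0.408% of all counts with vehicle, against 0.440% and 0.424% with UMBO. The difference of 0.0255 percentage points between the group means was smaller than the SD of 0.0278 among the vehicle libraries. Its sign depended on the scaling, and it was -0.0066 percentage points when TMM-scaled library sizes were the denominator. Their median difference on the log2 scale was -0.04 with TMM and 0.07 with library totals, beside 0.01 and 0.13 over all 23592 genes tested. No gene of the genome passed an adjusted p of 0.05 in the quasi-likelihood test of edgeR (0 of 23592, 0%), so 0 of the 9 did. The adjusted p of the members from edgeR lay between 0.497 and 0.949. At an unadjusted p under 0.05, edgeR had 0 members higher and 1 lower with UMBO, against 5.3% and 2.06% of all genes, and that member was Aspa. The DESeq2 Wald test called 0.178% of genes and 0 members, with an adjusted p of at least 0.425 for each of them.

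**Figure D1:**
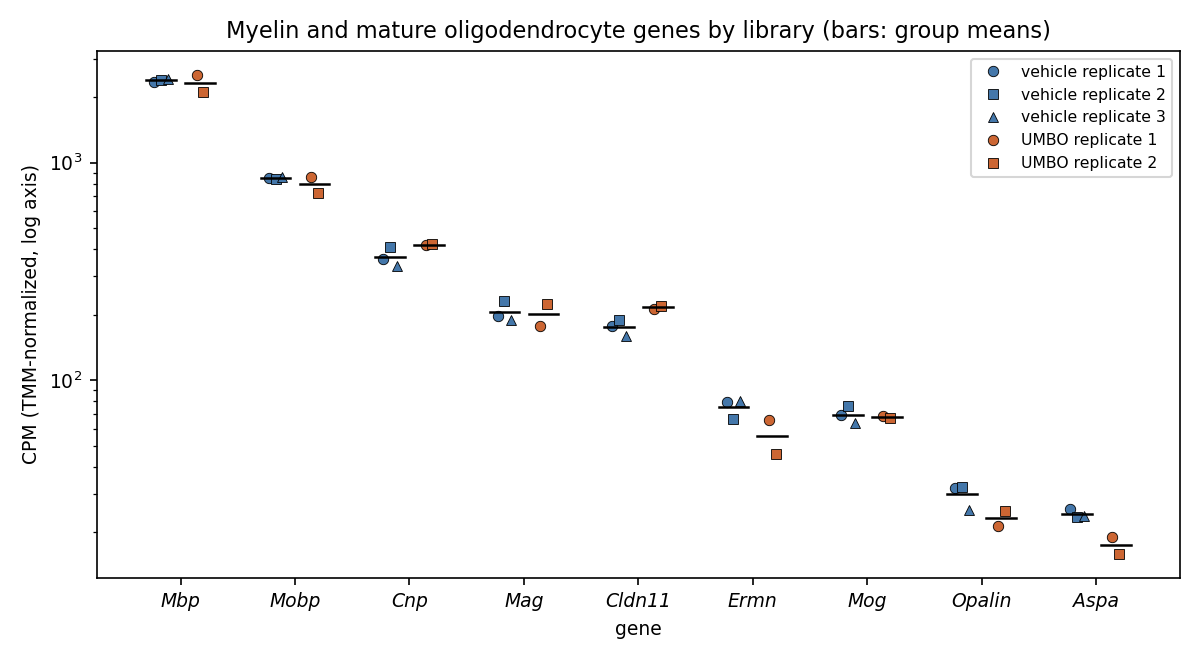
TMM-normalized CPM (log axis) of the 9 genes in each of the 3 vehicle libraries (blue) and 2 UMBO libraries (orange), with bars at the group means. The genes span from 15.9 CPM for Aspa in UMBO replicate 2 to 2537 CPM for Mbp in UMBO replicate 1, and the groups overlap for Mbp, Mobp, Mag and Mog but not for Cnp, Cldn11, Ermn, Opalin and Aspa.

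Mbp, Mobp and Mog, 3 structural genes of the sheath, differed little between the groups. Mbp (chromosome 18 of GRCm38, 82475146 to 82585637) encodes myelin basic protein, which binds the inner faces of the membrane to each other and is required for compaction. It stood at 2351, 2411 and 2417 CPM in the vehicle libraries and at 2537 and 2123 CPM with UMBO. The UMBO libraries lay on both sides of the vehicle libraries, whose SD was 36.7 CPM, against 293 CPM with UMBO. The log2 fold change was -0.04 (standard error 0.282, 95% interval -0.73 to 0.65). Reads were counted per gene, so the classic Mbp transcripts and the longer golli transcripts of the same locus were not separated. Mobp (chromosome 9, 120149707 to 120181484), an abundant small protein of compact myelin, was at 853, 839.9 and 856 CPM with vehicle and at 864 and 726 CPM with UMBO. UMBO replicate 1 was above every vehicle library and UMBO replicate 2 below, and the log2 fold change was -0.10 (standard error 0.235, interval -0.67 to 0.48). An exon of Gm38642 on the same strand overlaps Mobp over 79 bases.

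The RNAs for proteins at the edges of the sheath also overlapped in level between the groups. Mog (chromosome 17, 37010743 to 37023398), an immunoglobulin-like protein on the outermost layer and a classical target in experimental autoimmune encephalomyelitis, was at 69.1, 75.9 and 63.6 CPM with vehicle. Both UMBO libraries, at 68.2 and 67.3 CPM, fell inside that range, and the log2 fold change was -0.04 (standard error 0.163, interval -0.44 to 0.36). Mag (chromosome 7, 30899176 to 30914873), an adhesion molecule of the innermost layer that faces the axon, was at 197, 231 and 189.7 CPM with vehicle. It was at 177 CPM in UMBO replicate 1, below every vehicle library, and at 225 CPM in UMBO replicate 2, within their range. Its log2 fold change was -0.04 (standard error 0.217, interval -0.57 to 0.49).

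Cldn11 and Cnp were the 2 members with a positive fold change and the 2 with both UMBO libraries above every vehicle library, an order seen in 11.5% of all genes tested. Cldn11 (chromosome 3, 31149920 to 31164324) encodes claudin 11, the tight junction protein that seals the layers of myelin, and is also made outside the lineage, for example in arachnoid cells. It was at 178, 188 and 160.4 CPM with vehicle and at 213 and 219.7 CPM with UMBO. With TMM the gap between the nearest libraries of the 2 groups was wider than the difference between the UMBO libraries. It was narrower than the range of the vehicle libraries. With library totals, at 162, 191 and 158 CPM with vehicle and 214 and 241 CPM with UMBO, it was narrower than both. The log2 fold change was 0.30 (standard error 0.187, interval -0.16 to 0.76), and the edgeR quasi-likelihood test gave it an adjusted p of 0.497. Cnp (chromosome 11, 100574904 to 100591729) encodes the cyclic nucleotide phosphodiesterase of uncompacted myelin. It was at 363, 410.0 and 335 CPM with vehicle and at 418 and 422 CPM with UMBO, so UMBO replicate 1 cleared vehicle replicate 2 by only a small margin. The log2 fold change was 0.19 (standard error 0.212, interval -0.33 to 0.70). Over 154 bases an exon of Cnp overlaps one of Dnajc7 on the opposite strand. Whether reads were counted by strand is not given in the sources used here, so a part of its count can belong to that gene.

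Aspa, Opalin and Ermn, markers of mature oligodendrocytes that are not structural proteins of compact myelin, lay below every vehicle library in both UMBO libraries. This order was seen in 11.4% of all genes tested, and with library totals in place of TMM it held for Aspa and Ermn and not for Opalin. Aspa (chromosome 11, 73304992 to 73329596) encodes aspartoacylase, which releases acetate from N-acetylaspartate and whose loss causes the leukodystrophy Canavan disease. It was at 25.5, 23.5 and 23.7 CPM with vehicle and at 19.0 and 15.9 CPM with UMBO, a clear gap beside a vehicle SD of 1.12 CPM. The log2 fold change was -0.47 (standard error 0.176, interval -0.90 to -0.04), and the edgeR quasi-likelihood test gave an unadjusted p of 0.0356 and an adjusted p of 0.497. Over the alternatives its log2 fold change lay between -0.63 and -0.35. Ermn (chromosome 2, 58045113 to 58052864) encodes ermin, a protein of the oligodendrocyte cytoskeleton that binds actin. It was at 79.2, 66.3 and 80.2 CPM with vehicle and at 65.6 and 45.7 CPM with UMBO, so UMBO replicate 1 was just below vehicle replicate 2 and UMBO replicate 2 far below. Its log2 fold change was -0.44 (standard error 0.22, interval -0.97 to 0.10), and it was -0.75 without UMBO replicate 1 and -0.20 without UMBO replicate 2. An exon of Galnt5 on the opposite strand overlaps Ermn over 237 bases. Opalin (chromosome 19, 41061710 to 41077113) encodes a membrane glycoprotein of central myelin. Its vehicle values were 32.1, 32.2 and 25.4 CPM and its UMBO values 21.3 and 25.1 CPM, with nearly equal levels in vehicle replicate 3 and UMBO replicate 2. The log2 fold change was -0.37 (standard error 0.193, interval -0.84 to 0.11).

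**Figure D2:**
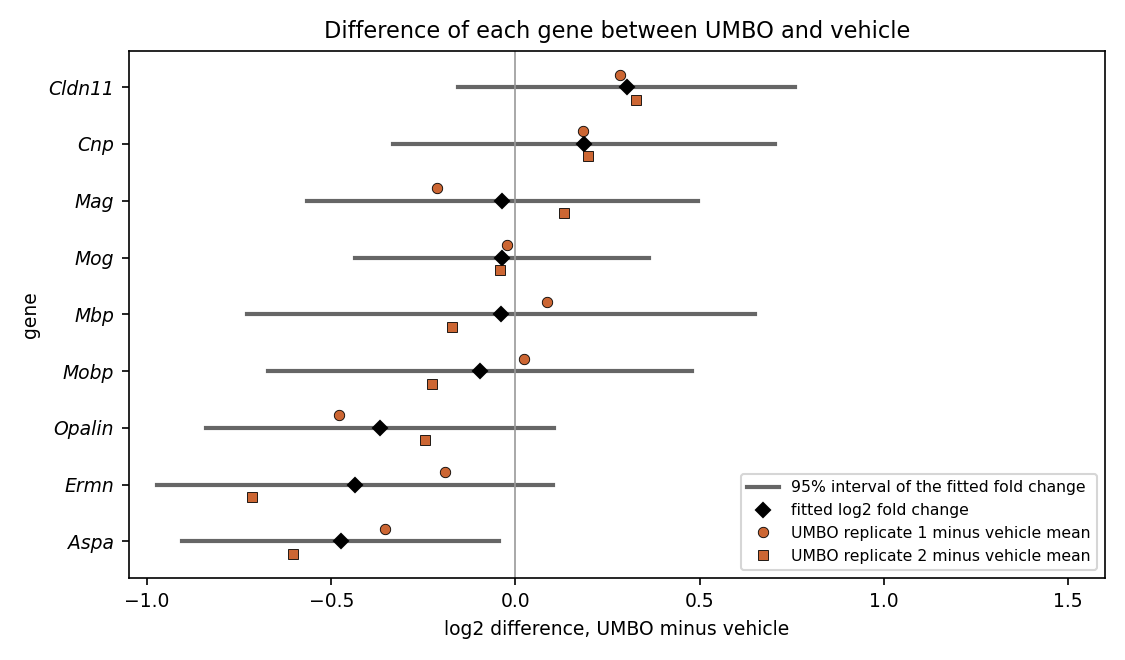
Log2 difference of each gene between UMBO and vehicle, as the fitted value (diamond) with its 95% interval (line) and as each UMBO library minus the vehicle mean (orange). All intervals but that of Aspa (-0.90 to -0.04) include 0, and the 2 UMBO libraries lie on the same side of 0 for Cldn11, Cnp, Mog, Opalin, Ermn and Aspa.

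The 2 UMBO libraries spread the members further apart than the vehicle libraries did. Relative to the vehicle mean, the log2 values of the 9 genes in UMBO replicate 1 ran from -0.48 (Opalin) to 0.28 (Cldn11), with an SD over the genes of 0.252. In UMBO replicate 2 they ran from -0.72 (Ermn) to 0.33 (Cldn11), with an SD of 0.350. In the vehicle libraries the SD over the genes was at most 0.116, which is smaller in part by construction, because each of these libraries enters the mean it is compared with. The median member was at -0.02 in the first UMBO library and -0.17 in the second. Over all 23592 genes the median size of the log2 fold change, without its sign, was 0.39, while for the 9 genes it was 0.19.

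Ratios of read counts within a library need no scaling between libraries and show which members kept step. The pairs were chosen after the values were seen, so they are described without a test. Mbp to Mobp was narrow, between 2.76 and 2.87 with vehicle and at 2.94 and 2.93 with UMBO. Mag to Mbp split the UMBO libraries, with 0.0698 for replicate 1 and 0.106 for replicate 2, on either side of the vehicle range of 0.0785 to 0.096. For Aspa to Mbp the UMBO libraries were alike, 0.00747 and 0.00750, against 0.00973 to 0.0109 with vehicle. Taking a member picked as higher against one picked as lower widens the gap by construction, so the next ratios restate those differences. Cldn11 to Ermn was 2.24, 2.84 and 2.00 with vehicle and 3.25 and 4.81 with UMBO. Cldn11 to Aspa was 6.97, 8.03 and 6.76 with vehicle and 11.3 and 13.8 with UMBO.

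**Figure D3:**
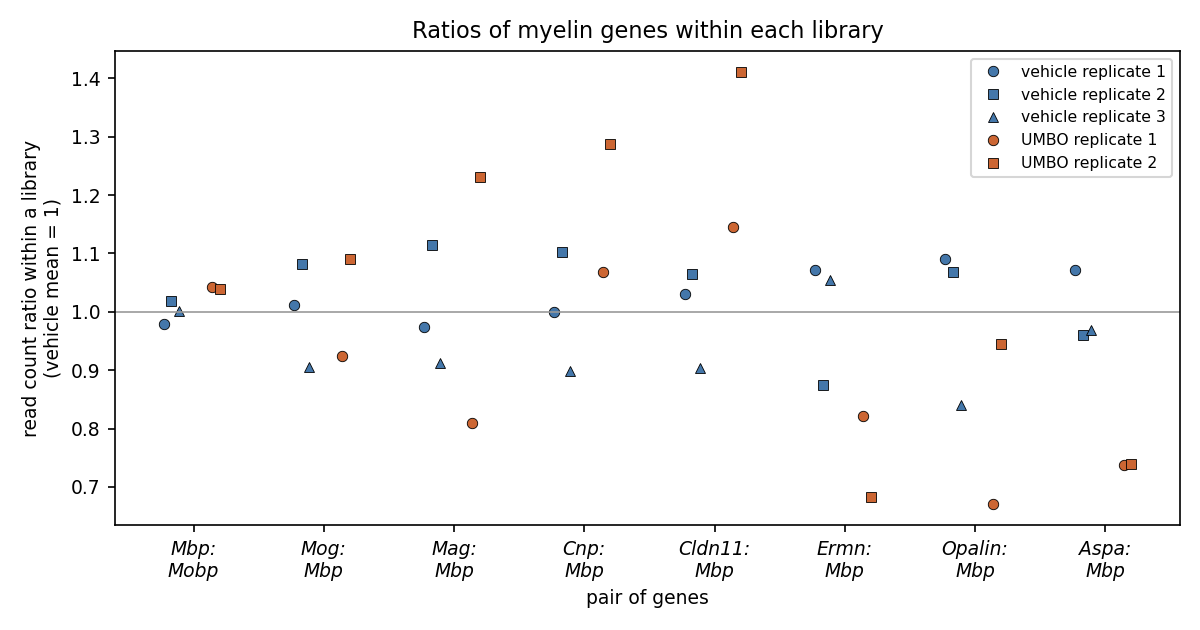
Ratios of read counts between pairs of myelin genes within each library, divided by the mean ratio of the 3 vehicle libraries (blue vehicle, orange UMBO). Mbp to Mobp stays near 1 in all 5 libraries, Cldn11 to Mbp is above the vehicle libraries in both UMBO libraries, and Aspa to Mbp is below them in both.

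Sequence before the transcription start was compared for the members that parted, Cldn11 and Cnp against Ermn and Opalin, and for Mobp, whose window held several matches to 1 motif. RefSeq (GRCm38.p6) gave promoters for 8 of the 9 members, 10 windows in all because Mag has several starts, and Mbp had no entry. The window of Aspa is not shown because its RefSeq start was not found in a GENCODE transcript. The start of 1 Mag window (chr7:30914973-30915172, reverse strand) was not found either, and both windows stay in the counts below. Each window holds the 200 bases from 250 to 51 bases before the start, printed 5′ to 3′ on the gene's strand, with matches to the motifs below in capitals.
Cldn11 (chr3:31149670-31149869, forward strand): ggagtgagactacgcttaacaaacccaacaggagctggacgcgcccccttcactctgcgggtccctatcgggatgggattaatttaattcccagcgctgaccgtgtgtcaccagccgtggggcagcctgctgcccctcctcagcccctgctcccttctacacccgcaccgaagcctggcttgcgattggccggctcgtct
Cnp (chr11:100574689-100574888, forward strand): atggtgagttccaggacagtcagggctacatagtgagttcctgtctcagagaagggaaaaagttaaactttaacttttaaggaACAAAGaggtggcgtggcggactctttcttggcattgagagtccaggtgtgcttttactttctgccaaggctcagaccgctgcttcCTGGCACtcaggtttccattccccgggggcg
Ermn (chr2:58052915-58053114, reverse strand): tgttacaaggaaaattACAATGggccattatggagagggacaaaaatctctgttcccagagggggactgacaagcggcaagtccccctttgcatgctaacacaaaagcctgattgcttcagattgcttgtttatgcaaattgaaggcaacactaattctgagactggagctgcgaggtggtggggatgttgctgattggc
Opalin (chr19:41077164-41077363, reverse strand): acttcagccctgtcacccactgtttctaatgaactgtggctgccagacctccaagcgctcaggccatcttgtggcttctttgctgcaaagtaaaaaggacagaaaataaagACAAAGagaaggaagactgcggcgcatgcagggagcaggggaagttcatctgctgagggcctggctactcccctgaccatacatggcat
Mobp (chr9:120149492-120149691, forward strand): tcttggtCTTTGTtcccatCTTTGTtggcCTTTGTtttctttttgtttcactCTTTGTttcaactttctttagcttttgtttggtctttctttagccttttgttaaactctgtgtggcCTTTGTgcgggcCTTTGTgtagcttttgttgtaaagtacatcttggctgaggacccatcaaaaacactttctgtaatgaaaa
The letters searched, on both strands, were ACAAAG or ACAATG for SOX factors such as SOX10, CTGGCAC or CTGGTAC for MYRF, CAGCTG for the E-box of OLIG2, and TATAAA for the TATA box. In no member window did matches of different motifs overlap. A SOX match was in 6 of the 10 member windows, against 21.2% of 32817 promoter windows of the same length. However, 2 of these 6 are overlapping windows of Mag that share 1 match. Of these 2, 1 is the Mag window whose start was not found in a GENCODE transcript. Mobp held 6 such matches, while Cnp, Ermn and Opalin held 1 each and Cldn11 held 0. A MYRF match was in 3 of the 10 windows, in Cnp, Mog and Mag, against 4.83% of all windows. The E-box and the TATA box were each matched in 1 window, that of Aspa, against 10.3% and 9.14% of all windows. The start behind that window was not found in a GENCODE transcript, so its matches may not lie before a start in use. The windows end 51 bases before the start, so a TATA box nearer to it was not searched for. The windows of Cldn11 and Cnp, the members above every vehicle library, shared no motif, and those of Ermn and Opalin shared the SOX letters with Cnp. Nothing in these counts shows whether a factor binds at a match.

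Levels are compared between genes only per kilobase of exon, on CPM. On that scale Mbp led with 283 CPM per kilobase (vehicle mean; SD 4.33, n = 3), followed by Mobp with 124 (SD 1.26). Cnp with 101 (SD 10.4) and Cldn11 with 93.9 (SD 7.56) came next and did not differ beyond their spread. Mag at 50.6 (SD 5.46) and Mog at 40.8 (SD 3.60) followed, then Ermn at 20.7 (SD 2.13), Opalin at 10.2 (SD 1.32) and Aspa at 4.07 (SD 0.188). The 3 members that were lower in both UMBO libraries were thus the 3 at the bottom of this order. Mbp alone took between 54.9% and 58.2% of the counts of the 9 genes in every library, so a sum over the members mostly follows Mbp.

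Other genes of oligodendrocytes, in 8 lists by role, lay on both sides of 0. Of the 8 other genes of myelin structure, 3 were above 0 and 5 below, and 1 reached an unadjusted edgeR p under 0.05. Their median was -0.19, but -0.48 without UMBO replicate 1 and 0.04 without UMBO replicate 2. That gene was Gsn, the actin-severing protein gelsolin, at 66.2, 81.9 and 61.2 CPM with vehicle and 89.2 and 109 CPM with UMBO. For Tppp, a tubulin-binding protein, the log2 fold change was -0.82 (standard error 0.463). Its vehicle values were 593, 375 and 491 CPM, and its UMBO values of 402 and 151 CPM differed more from each other than from the nearest vehicle library. Of 7 genes of axon contact and gap junctions, 5 were higher and 2 lower, and 0 reached an unadjusted p under 0.05. Their median was 0.14, but 0.0029 without UMBO replicate 2 and 0.27 without vehicle replicate 2. Gjc3, a glial connexin, differed by 0.54 on the log2 scale (standard error 0.231) and Jam3, a junctional adhesion molecule, by 0.47 (standard error 0.281). Of 8 enzymes and carriers of myelin lipid, 5 were higher and 3 lower, with a median of 0.30 that was 0.11 without UMBO replicate 2. Gltp, the glycolipid transfer protein, was at 47.1, 60.6 and 47.7 CPM with vehicle and at 74.3 and 97.7 CPM with UMBO, the 1 gene of this list with an unadjusted p under 0.05. For Elovl1, a fatty acid elongase, the log2 difference was 0.64 (standard error 0.304). Exons of Elovl1 and Jam3 overlap a gene on the opposite strand, Cdc20 and Gm48796 in turn.

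Genes of the newly formed oligodendrocyte stage lay above 0. All 6 had a positive log2 fold change, against 50.9% of all genes, with a median of 0.75, and 5 had an unadjusted edgeR p under 0.05, against the 5.3% of all genes given above. In 4 of the 6 both UMBO libraries were above every vehicle library, against 11.5% of all genes. None passed after adjustment over all genes, where the edgeR quasi-likelihood test gave each an adjusted p of at least 0.497. Bcas1, a marker of cells that are starting to myelinate, was at 201, 219.7 and 223 CPM with vehicle and at 329 and 347 CPM with UMBO, a log2 fold change of 0.65 (standard error 0.19). The antisense gene Bcas1os1 overlaps it. Enpp6, a choline-specific phosphodiesterase of newly formed cells, was at 14.3, 11.8 and 11.6 CPM with vehicle and at 32.1 and 16.4 CPM with UMBO. Gpr17, a receptor that marks committed precursors and was named after its values were seen, was at 172 CPM in UMBO replicate 1. Its other libraries lay between 49.4 and 68.9 CPM, with UMBO replicate 2 at 62.9. An exon of Lims2 on the opposite strand overlaps Gpr17. Without UMBO replicate 1 the median of this list was 0.27, so the size of its difference depended on that library, whereas without UMBO replicate 2 it was 0.96. The 7 genes of the precursors themselves had 3 higher and 4 lower, and 0 reached an unadjusted edgeR p under 0.05. Their median was -0.03, but -0.28 without UMBO replicate 1 and 0.04 without UMBO replicate 2. The log2 difference was 0.66 (standard error 0.354) for Cspg4, the NG2 proteoglycan, and -0.43 (standard error 0.316) for Lhfpl3.

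**Figure D4:**
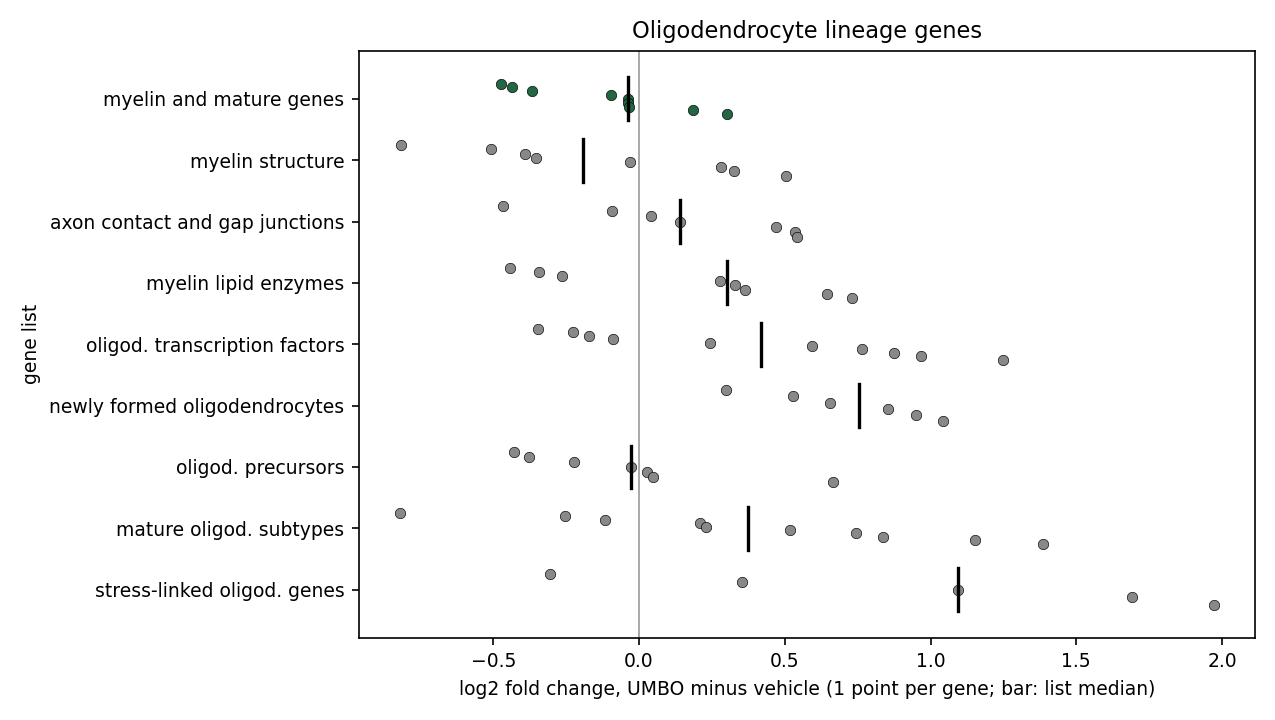
Log2 fold change of UMBO against vehicle for each gene (points) of the 9 myelin and mature oligodendrocyte genes (green) and of 8 other oligodendrocyte lists (gray), with black bars at the list medians. The 6 genes of newly formed oligodendrocytes all lie above 0 with a median of 0.75, whereas the myelin and mature genes have a median of -0.04.

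Transcription factors of the lineage lay on both sides of 0. Of 10 factors, 6 were above and 4 below, where 50.9% of all genes were above. Of these, 3 were higher at an unadjusted edgeR p under 0.05 and 0 lower, against 5.3% and 2.06% of all genes. Their median was 0.42, but 0.26 without UMBO replicate 1. Nkx2-2, which acts early in differentiation, was at 8.51, 12.1 and 10.1 CPM with vehicle and at 18.0 and 19.6 CPM with UMBO. Olig2, which specifies the lineage, was at 34.7, 55.6 and 38.3 CPM with vehicle and at 55.6 and 148 CPM with UMBO, so UMBO replicate 1 was level with vehicle replicate 2. Myrf, the factor that directly activates myelin genes and was named after its values were seen, was at 71.9, 65.3 and 67.5 CPM with vehicle and 69.8 and 58.5 CPM with UMBO. Its log2 fold change of -0.09 (standard error 0.167) lay within the range of the 9 members, from -0.47 (Aspa) to 0.30 (Cldn11). A link between Myrf and the levels of the members was not tested. Of 10 genes that mark subtypes of mature oligodendrocytes, 7 were higher and 3 lower, with a median of 0.37 that became -0.01 without UMBO replicate 2. Hopx was at 22.9, 27.5 and 27.0 CPM with vehicle and 37.7 and 36.2 CPM with UMBO. Anxa5, the phospholipid-binding annexin A5, was at 51.4, 78.5 and 64.5 CPM with vehicle and 77.9 and 139 CPM with UMBO, so the groups overlapped. Of 5 genes linked to stress of oligodendrocytes, 4 were higher and 1 lower, with a median of 1.10 that was 0.34 without UMBO replicate 2 and 1.89 without vehicle replicate 2. Serpina3n, a serine protease inhibitor that astrocytes also make, was at 23.9, 73.8 and 28.9 CPM with vehicle and at 116 and 215 CPM with UMBO. Cdkn1a, the cell cycle inhibitor p21, was at 12.6, 21.2 and 9.93 CPM with vehicle and at 16.5 and 77.4 CPM with UMBO. Exons of Nkx2-2, Hopx, Cdkn1a and, among the precursor genes, Lhfpl3 overlap a gene on the opposite strand.

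Markers of other cells differed between the libraries too. The 10 proliferation markers summed to 34.3 to 103 CPM with vehicle and to 111 and 442 CPM with UMBO, and all 10 had a positive fold change. The 5 monocyte and macrophage markers summed to 18.1 to 79.4 CPM with vehicle and to 71.8 and 367 CPM with UMBO. The 6 microglia markers were at 361 to 536 CPM with vehicle and at 686 and 814 CPM with UMBO. The 6 endothelial markers summed to 192 to 279 CPM with vehicle and to 325 and 397 CPM with UMBO, and all 6 had a positive fold change. The 10 neuron markers went the other way in UMBO replicate 2, with 6358 to 9521 CPM with vehicle, 6795 CPM in UMBO replicate 1 and 3268 CPM in UMBO replicate 2. The 7 astrocyte markers summed to 3546 to 4958 CPM with vehicle, 4596 CPM in UMBO replicate 1 and 2128 CPM in UMBO replicate 2. Slc1a2 was the largest part of that sum, and it was at 765 CPM in UMBO replicate 2. Of the 7, 4 had a positive fold change and 3 a negative one. Both UMBO libraries were above every vehicle library for Aldh1l1, at 88.2 and 89.1 CPM. The summed 9 myelin genes were at 4147 to 4278 CPM with vehicle and at 4383 and 3869 CPM with UMBO. Their spread was narrower than that of the neuron sum or the astrocyte sum. The 7 hindbrain markers summed to at most 2.94 CPM with vehicle and to 1.68 and 11.4 CPM with UMBO. The 5 cerebellum markers summed to between 67.9 and 122 CPM, nearly all of it from Zic1 and Cbln1, which are not confined to the cerebellum. The part of these other cells in the values of the oligodendrocyte genes was not tested.

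The 5 genes outside all lists whose profile over the 5 libraries was nearest to the mean profile of the 9 members were Cptp, Clip4, Acbd4, Elavl3 and Deaf1. Their root mean square difference from it was 0.0113 to 0.0177 on the log2 scale, with a median of 0.26 over the 10872 genes compared. The mean profile itself was almost flat, from -0.10 in UMBO replicate 2 to 0.10 in vehicle replicate 2. The members lay further from their own mean than these 5 genes did, from 0.0617 for Mog to 0.254 for Ermn, since members above and below it cancel in the mean.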

How the data were processed

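The submitters' processing notes name STAR 2.7.2a and GRCm38. The tables the authors deposited, 1 per library, hold whole-number read counts for each Ensembl gene with no normalization. The annotation release and the strand setting are not given in the sources used here. The sample titles gave the group and number of each library. Symbols (55480 of 55573 identifiers), positions and exon lengths came from GENCODE M21 on the same build, and promoters from RefSeq. Counts were scaled by TMM, filtered with filterByExpr (23592 genes) and compared in edgeR 4.0.16 (quasi-likelihood F-test, R 4.3.3), with Benjamini-Hochberg adjustment over all genes tested. The standard error is the fold change divided by the root of F. Relative log2 CPM used a prior count of 2. DESeq2 1.42.0 was run with the same filter as an alternative, as were other scalings and filters, the replicate block and each library left out in turn.

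The members, the gene lists and the tests were chosen with earlier results of these data known. Named genes were the 9 members, the 2 genes with the smallest p of each other oligodendrocyte list and the 5 genes nearest in profile (mean CPM of at least 10). Others are marked where they appear. Motifs and ratios were chosen after the values were seen. The labels describe 5 mice, and p-values measure only the spread between these libraries. Every pair of libraries differed by more than counting noise (chi-square of at least 55.9 for each gene on average). The lowest value was that of vehicle replicate 2 against UMBO replicate 1, so the most alike pair came from different groups. Against vehicle replicates 1 and 3, vehicle replicate 2 had values of 122 and 121. Total counts ranged from 59736771 to 86164159.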

Additional observations from a re-analysis of the deposited data

How the results depend on the processing

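Of 99 values for the 9 members under 11 alternatives, 89 kept the sign and the side of the threshold and 10 changed sign, all in Mbp, Mog, Mag and Mobp, whose differences were near 0. Cldn11 and Cnp stayed positive, and Aspa, Opalin and Ermn negative, in every alternative run, and 0 of the 9 was called in any, with a lowest edgeR adjusted p of 0.0529, without UMBO replicate 1. With library size only, Mbp was at 0.071, Mog at 0.076, Mag at 0.084 and Mobp at 0.014, and the median of all genes moved from 0.01 to 0.13. With the filter at a CPM of at least 1 in 2 libraries, Mag was at 0.0058. With 1 library left out, the ranges were -0.20 to 0.086 for Mbp, -0.10 to 0.057 for Mog, -0.22 to 0.10 for Mag, -0.26 to 0.025 for Mobp and -0.20 to -0.0083 for the median of the 9 genes, the lowest median being that without UMBO replicate 1. The difference in the share of counts was -0.0066 percentage points with TMM-scaled library sizes.

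Genes called numbered 42 with the DESeq2 Wald test and from 0 to 4543 with 1 library left out. The 4543 were called without UMBO replicate 1. When either UMBO library is left out, the spread comes from the vehicle libraries alone. Genes at an unadjusted p under 0.05 numbered 1738 (1251 higher), 4100 with no filter on low counts, 2639 with the DESeq2 Wald test and from 296 (without vehicle replicate 1) to 10165 (without UMBO replicate 1) with 1 library left out. With the replicate block, 2337 genes were called, 0 of them members, and 6134 had an unadjusted p under 0.05. The cause was not tested for these. Deviations of libraries that share a number correlated at 0.453 and 0.76, but nothing says that a number marks a shared litter or day, and a group of 2 has equal and opposite deviations whatever its values. Medians of the other lists, chosen for this check after seeing the data, are given with the lists.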
